A study of Mus musculus with 7 samples.

Results

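The carboxylesterases are a family of serine hydrolases that cleave ester bonds in drugs, retinyl esters, cholesteryl esters and triacylglycerol. In the mouse the family is much expanded, and most of its members lie in tandem arrays on 1 chromosome. Hepatocytes make many of them and keep most in the lumen of the endoplasmic reticulum, where several take part in drug clearance and in the hydrolysis of stored triacylglycerol, while others, such as Ces1c, are secreted into plasma. TET1 is a dioxygenase that oxidises 5-methylcytosine, mostly at CpG dinucleotides (a C followed by a G), and so takes part in active DNA demethylation.

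The 10 genes described here, Ces1b, Ces1c, Ces1d, Ces1e, Ces1f, Ces1g, Ces2a, Ces2e, Ces3a and Ces3b, were found by their symbols in the count tables, out of 51426 genes, and make up 10 of the 20 genes whose symbol begins with Ces and a digit. Expression was measured by RNA-seq in hepatic tissue of male mice labelled C57BL/6J, 3 of them WT and 4 of them whole body TET1 KO (genotype label TET-1-TKO), each replicate being a separate mouse. Both groups received an HFD for 16 weeks from 8 weeks of age, and no chow-fed group entered the comparison. The deletion is not limited to hepatocytes, so an effect of TET1 loss in liver and one in other organs cannot be told apart here. The study reported lower body weight, hepatic cholesterol and hepatic triglyceride in its whole body TET1 KO mice on the HFD. Effects of genotype and of lipid load therefore cannot be told apart either. The study used a constitutive TET1-/- strain and a floxed strain recombined by β-actin Cre. The labels do not name the strain sequenced, while the study's description of the RNA-seq gives TET1-/- against TET1 wt/wt, its notation for the constitutive strain. The stock name of that strain denotes a mixed background, and backcrossing to C57BL/6J is stated in its methods for the floxed and Cre lines alone. The study asked how the loss of TET1 alters the liver under an HFD that induces MASLD, and the comparison below puts that question to the carboxylesterase genes.

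The 7 libraries held 15005277 to 22746138 counts. Values are given as CPM, the usual depth-scaled unit of a gene's counts as a share of its library, after TMM (trimmed mean of M-values) correction, and a gene was called when its p from edgeR's quasi-likelihood test, adjusted by Benjamini-Hochberg over the 14754 genes tested, was under 0.05. Tet1 itself was close to the limit of detection in both genotypes, with 1, 4 and 1 counts in WT livers and 2, 1, 4 and 1 counts in TET1 KO livers (exact two-sided permutation test, p = 0.743, where 0.0286 is the smallest p that 35 splits of 7 mice allow), so the labels could not be checked on the targeted gene. Hepatocyte markers were high in all livers, with Alb at 42646 CPM or above. On the first principal component, which held 48.7% of the variance, TET1 KO replicate 1 stood farthest from the WT livers and TET1 KO replicate 4 nearest to them. TET1 KO replicate 1 also had the lowest summed level of 9 pericentral hepatocyte markers, 6590 CPM, of which Cyp2e1 gave 3953 CPM. The sum was 9639 to 10238 CPM in WT livers and 11753 to 11906 CPM in the other TET1 KO livers. Cyp2e1, Glul, Oat, Rgn, Slc1a2 and Gulo were lowest in TET1 KO replicate 1. Cyp1a2 (534 CPM) and Lgr5 (8.95 CPM) were above all WT livers there, and Axin2 (5.20 CPM) was within their range. Several results that rest on TET1 KO replicate 1 are given with and without it.

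The members lie on chromosome 8 of GRCm38 in 2 arrays. The Ces1 array runs from 93020214 to 93379777, covers 360 kb with 8 genes and is transcribed from the minus strand. The array from Ces2a to Ces4a runs from 104734003 to 105150109, covers 416 kb with 11 genes and is transcribed from the plus strand. A stretch of 11.4 Mb separates the arrays.

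Start-site sequences of 4 members are shown because TET1 acts at CpG dinucleotides, and because Ces1g, Ces2a and Ces2e were the members whose WT and TET1 KO livers did not overlap, while Ces1c is an abundant gene of the Ces1 array whose groups overlapped. Each runs 5′ to 3′ from 250 bases before to 50 bases after the start of transcription, from RefSeq on GRCm38.p6, with every CpG in capitals. They lie at chr8:93337160-93337459 on the minus strand (Ces1g), chr8:93131234-93131533 on the minus strand (Ces1c), chr8:104733753-104734052 on the plus strand (Ces2a) and chr8:104926010-104926309 on the plus strand (Ces2e).
Ces1g: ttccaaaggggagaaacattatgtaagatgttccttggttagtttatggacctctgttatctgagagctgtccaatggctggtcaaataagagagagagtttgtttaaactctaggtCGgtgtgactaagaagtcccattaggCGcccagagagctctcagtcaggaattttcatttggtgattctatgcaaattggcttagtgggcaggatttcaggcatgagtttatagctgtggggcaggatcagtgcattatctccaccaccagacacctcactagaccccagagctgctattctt
Ces1c: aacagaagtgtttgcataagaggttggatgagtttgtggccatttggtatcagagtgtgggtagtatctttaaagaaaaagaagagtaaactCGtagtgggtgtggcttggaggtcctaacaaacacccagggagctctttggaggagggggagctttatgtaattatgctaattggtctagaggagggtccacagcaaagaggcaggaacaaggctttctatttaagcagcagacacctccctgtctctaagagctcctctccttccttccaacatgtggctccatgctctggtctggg
Ces2a: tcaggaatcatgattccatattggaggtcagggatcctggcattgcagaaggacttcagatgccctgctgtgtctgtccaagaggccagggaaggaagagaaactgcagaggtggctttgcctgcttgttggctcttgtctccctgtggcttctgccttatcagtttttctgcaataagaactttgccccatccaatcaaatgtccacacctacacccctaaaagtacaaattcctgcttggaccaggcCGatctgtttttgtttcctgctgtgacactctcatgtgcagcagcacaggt
Ces2e: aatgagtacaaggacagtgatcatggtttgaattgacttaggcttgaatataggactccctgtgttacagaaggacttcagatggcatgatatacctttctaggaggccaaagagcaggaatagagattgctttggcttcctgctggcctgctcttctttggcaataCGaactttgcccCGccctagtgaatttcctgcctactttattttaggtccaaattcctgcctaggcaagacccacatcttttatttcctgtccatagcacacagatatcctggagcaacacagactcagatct

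All of these windows were poor in CpG. Ces1g and Ces2e held 2 each, and Ces1c and Ces2a held 1 each, against a median of 7 over 32851 mouse promoters of the same length, of which 23.3% held 2 or fewer and 14.1% held 1 or none. Start-site windows were found for 7 of the 10 members, and the others ranged from 0 CpG in Ces1e to 4 in Ces3b, with 1 and 2 at the alternative starts of Ces1b. The letters TATAAA, searched on both strands, occurred in the windows of Ces1g and Ces3b and in 13.6% of all promoters, and AGTTCA occurred in those of Ces1b and in 14.0% of all promoters. The letters TTCNNNGAA, the HNF1 palindrome and a direct repeat of AGGTCA with 1 base between its copies occurred in no window of a member. DNA methylation was not measured in these libraries, and the windows are given as a description of the loci.

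Levels differed far more between members than between genotypes. Per kb of exon, Ces3a was highest in WT livers with 947 ± 93.8 CPM per kb (SD, n = 3), followed by Ces1c with 874 ± 74.5 CPM per kb, and Ces1b was lowest with 31.9 ± 6.58 CPM per kb, a span of 29.7-fold. In TET1 KO livers Ces3a was again highest with 1109 ± 224 CPM per kb (SD, n = 4), followed by Ces1c with 916 ± 263 CPM per kb, and Ces1g was lowest with 35.3 ± 14.9 CPM per kb. The step from Ces1c down to the next gene, Ces1d, was the only one between neighbours in the order where the ranges over livers did not overlap, and this held in both genotypes. When coding length was used in place of exon length, Ces1c came above Ces3a in WT livers, with 1202 against 1133 CPM per kb.

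**Figure D1:**
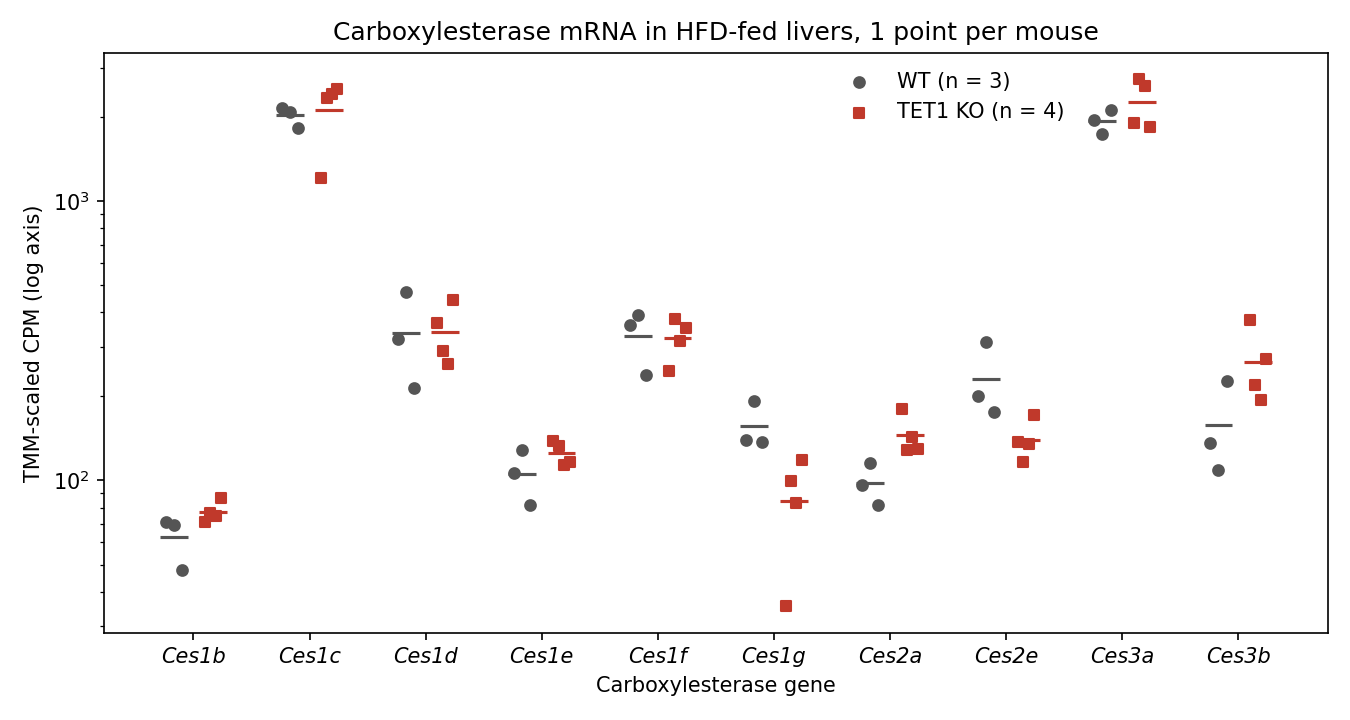
TMM-scaled CPM (vertical log axis, not divided by gene length) of the 10 carboxylesterase genes in 3 WT livers (circles) and 4 TET1 KO livers (squares), 1 point per mouse in replicate order, with the group mean as a line. Ces1c and Ces3a lie at 1216 CPM or above in every liver, Ces1g and Ces2e points of TET1 KO livers lie below all WT points, and Ces2a points of TET1 KO livers lie above them.

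Ces1c and Ces3a together held 66.8% to 79.2% of the counts of the 10 members in each liver. The summed level of all members was 5448 ± 253 CPM (SD, n = 3) in WT livers, which is 0.521% to 0.597% of a library, and 5901 ± 839 CPM (SD, n = 4) in TET1 KO livers, or 0.458% to 0.618% of a library. The lowest of the 7 sums was that of TET1 KO replicate 1 with 4677 CPM, and by that liver alone the groups overlapped. The other TET1 KO livers, at 6527, 6342 and 6057 CPM, were above the WT livers, at 5160 to 5631 CPM.

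No member was called by edgeR, against 298 of the 14754 genes tested (2.02%), of which 129 were higher (0.874%) and 169 lower (1.15%) in TET1 KO livers. At an unadjusted p under 0.05 there were 4 members, Ces1g, Ces2a, Ces2e and Ces3b, against 26.3% of all genes. DESeq2 on the same counts called 3 members, Ces2a higher and Ces1g and Ces2e lower, against 9.46% of all genes (4.64% higher and 4.81% lower). These were also the 3 members whose groups did not overlap, which was so for 22.5% of all genes (11.7% higher and 10.8% lower). With the replicate number as a block, 8.99% of all genes and 1 member, Ces1g, were called. The median log2 fold change of the members was 0.15, beside 0.01 over all genes tested, with 7 members above 0 and 3 below.

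**Figure D2:**
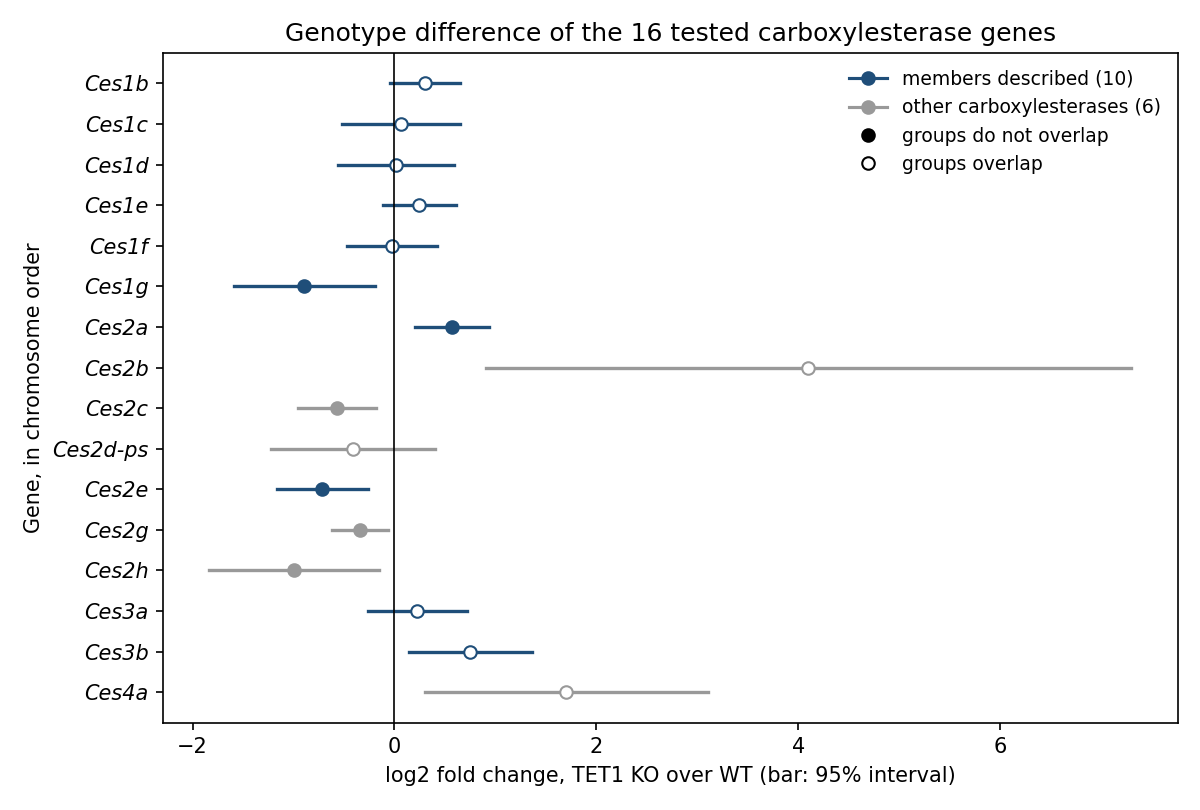
log2 fold change of TET1 KO over WT livers (horizontal axis) with its 95% interval from edgeR for the 16 carboxylesterase genes tested, in chromosome order from top to bottom, with the 10 members in blue and the other genes in grey. Filled points mark genes whose WT and TET1 KO livers do not overlap. Ces1g and Ces2e lie to the left of 0 and Ces2a and Ces3b to the right, while the intervals of the other Ces1 members and of Ces3a include 0.

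Ces2e (ENSMUSG00000031886, chromosome 8 from 104926260 to 104934672, plus strand), a carboxylesterase of liver and intestine, had the smallest p of the members. It was at 200, 314 and 176 CPM in WT livers and at 137, 116, 135 and 172 CPM in TET1 KO livers. All TET1 KO livers lay below all WT livers, although TET1 KO replicate 4 came within a few CPM of WT replicate 3. Group means were 230 ± 73.8 CPM (SD, n = 3) for WT and 140 ± 23.1 CPM (SD, n = 4) for TET1 KO. The difference on the log2 scale was -0.72 ± 0.21 (SE, 95% interval -1.17 to -0.26), and the adjusted p was 0.0795 by edgeR and 0.0208 by DESeq2. WT replicate 2 was by far the highest liver, and without it the log2 fold change was -0.43 (edgeR adjusted p = 0.329), while without TET1 KO replicate 4 it was -0.83 and was called (edgeR adjusted p = 0.0486).

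Over the 7 livers, the 3 genes outside the family whose log2 CPM followed Ces2e most closely were Atp9a, a phospholipid flippase (Pearson's r = 0.990), Nceh1, a cholesteryl ester hydrolase (r = 0.988), and Ipp (r = 0.987). They were selected for this likeness among all genes tested and over all 7 livers, so their genotype differences follow from that of Ces2e, and the coefficients and the differences of -0.67, -0.61 and -0.75 on the log2 scale are descriptive.

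Ces2a (ENSMUSG00000055730, chromosome 8 from 104734003 to 104741634, plus strand), a hydrolase of tri- and diacylglycerol in liver, stood on the opposite side. It was at 96.7, 116 and 81.6 CPM in WT livers and at 181, 128, 144 and 130 CPM in TET1 KO livers. All TET1 KO livers lay above all WT livers, with TET1 KO replicate 1 the highest. Group means were 97.9 ± 17.0 CPM (SD, n = 3) for WT and 146 ± 24.4 CPM (SD, n = 4) for TET1 KO. The difference on the log2 scale was 0.57 ± 0.17 (SE, 95% interval 0.20 to 0.94), and the adjusted p was 0.0832 by edgeR and 0.0376 by DESeq2. Without TET1 KO replicate 1 the log2 fold change was 0.45 (edgeR adjusted p = 0.127), and without WT replicate 3 it was 0.43 (edgeR adjusted p = 0.221).

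Ces2a and Ces2e shared 83.3% of their coding sequence, and the ratio of their counts within a liver does not depend on how libraries are scaled. The ratio of Ces2a to Ces2e counts was 0.483, 0.368 and 0.463 in WT livers and 1.32, 1.10, 1.06 and 0.755 in TET1 KO livers. Ces2e counts exceeded Ces2a counts in all 3 WT livers and in TET1 KO replicate 4, and Ces2a counts were the higher in the other TET1 KO livers. This pair, like those below, was chosen after the values had been seen, and its ratio was not tested.

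**Figure D3:**
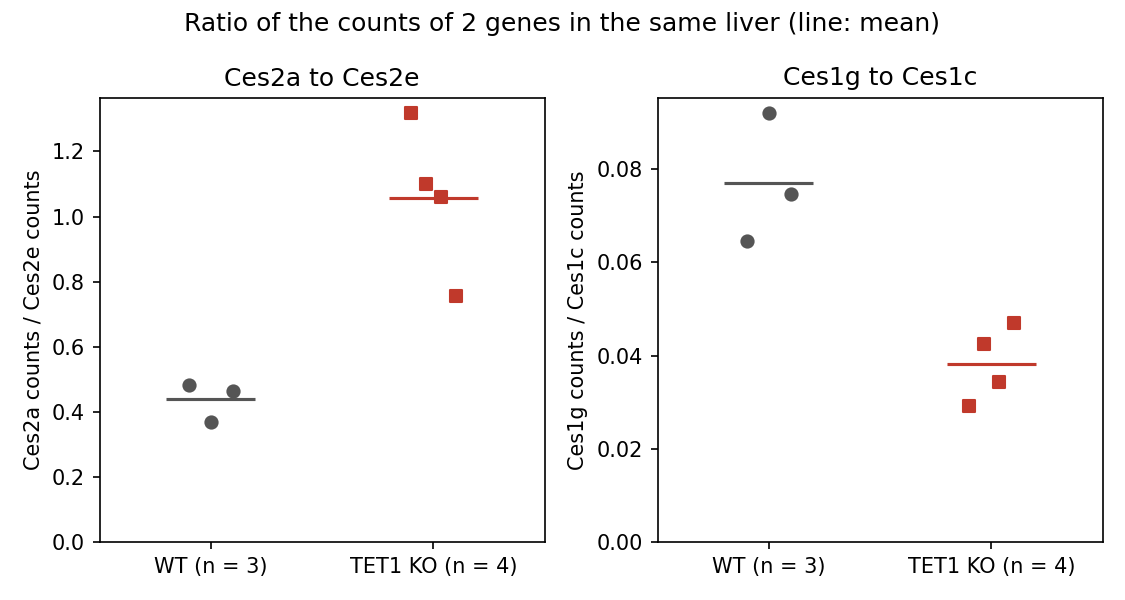
Ratio of the counts of a pair of genes in the same liver (vertical axes from 0), Ces2a over Ces2e on the left and Ces1g over Ces1c on the right, for 3 WT livers (circles) and 4 TET1 KO livers (squares), with the group mean as a line. The Ces2a to Ces2e ratio of TET1 KO livers starts at 0.755, above the highest WT ratio of 0.483, and the Ces1g to Ces1c ratio of TET1 KO livers ends at 0.0471, below the lowest WT ratio of 0.0645.

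In the Ces1 array, Ces1g (ENSMUSG00000057074, chromosome 8 from 93302369 to 93337209, minus strand), whose loss in mice is known to raise hepatic and plasma lipids, was the member with the lowest TET1 KO level relative to WT. It was at 139, 193 and 137 CPM in WT livers and at 35.4, 99.6, 83.3 and 119 CPM in TET1 KO livers. The groups did not overlap, and TET1 KO replicate 1 was well below the other TET1 KO livers. Group means were 156 ± 31.8 CPM (SD, n = 3) for WT and 84.3 ± 35.6 CPM (SD, n = 4) for TET1 KO. The difference on the log2 scale was -0.89 ± 0.32 (SE, 95% interval -1.59 to -0.19), and the adjusted p was 0.117 by edgeR and 0.0460 by DESeq2. Without TET1 KO replicate 1 the log2 fold change was -0.64 (edgeR adjusted p = 0.0991), and without WT replicate 2 it was -0.72 (edgeR adjusted p = 0.402).

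The ratio of Ces1g to Ces1c counts was 0.0645, 0.0921 and 0.0746 in WT livers and 0.0291, 0.0424, 0.0343 and 0.0471 in TET1 KO livers. The ratio of Ces1g to Ces1f counts was 0.387 to 0.574 in WT livers and 0.143 to 0.338 in TET1 KO livers. In both ratios, chosen after the values had been seen, TET1 KO livers lay below WT livers, and Ces1g thus stood lower relative to these neighbours in its array also in the TET1 KO livers other than replicate 1.

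Ces1c (ENSMUSG00000057400, chromosome 8 from 93099015 to 93131283, minus strand), the carboxylesterase of mouse plasma, was at 2160, 2097 and 1834 CPM in WT livers and at 1216, 2348, 2426 and 2522 CPM in TET1 KO livers. TET1 KO replicate 1 was the lowest liver, and the other TET1 KO livers were above all WT livers. The log2 fold change was 0.07 (95% interval -0.52 to 0.65, edgeR adjusted p = 0.889) and became 0.26 without TET1 KO replicate 1 (edgeR adjusted p = 0.397). Its sign was not stable, since scaling to library size alone gave -0.03.

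Ces1d (ENSMUSG00000056973, chromosome 8 from 93166072 to 93197804, minus strand), the triacylglycerol hydrolase that feeds stored lipid into very low density lipoprotein, was at 320, 474 and 214 CPM in WT livers and at 367, 292, 261 and 442 CPM in TET1 KO livers. Both groups covered nearly the same range. The log2 fold change was 0.02 (standard error 0.26, 95% interval -0.56 to 0.59, edgeR adjusted p = 0.972), and it ran from -0.24 to 0.34 when each mouse was left out in turn. Adipocytes also express Ces1d, and the summed level of 5 adipocyte markers was highest in TET1 KO replicate 2 (17.5 CPM), whose Ces1d level was not high among the 7 livers, and next highest in WT replicate 2 (12.6 CPM), whose Ces1d level was the highest. In WT replicate 2 most of that sum was Cidea (11.3 CPM), a lipid droplet gene, with Adipoq at 0.373 CPM and Plin1 at 0.166 CPM, whereas TET1 KO replicate 2 had Adipoq at 4.23 CPM and Plin1 at 4.93 CPM. The part of these markers in the Ces1d level was not tested.

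Ces1f (ENSMUSG00000031725, chromosome 8 from 93256236 to 93279766, minus strand), which hydrolyses triacylglycerol in hepatocytes, was at 360, 391 and 238 CPM in WT livers and at 247, 380, 316 and 351 CPM in TET1 KO livers. The groups overlapped, and the log2 fold change was -0.03 (95% interval -0.47 to 0.42, edgeR adjusted p = 0.941). Without TET1 KO replicate 1, the lowest TET1 KO liver, it was 0.08 (edgeR adjusted p = 0.818). Ces1e (ENSMUSG00000061959, chromosome 8 from 93201218 to 93229631, minus strand), known as egasyn because it retains β-glucuronidase in the endoplasmic reticulum, was at 106, 129 and 81.9 CPM in WT livers and at 139, 133, 114 and 116 CPM in TET1 KO livers. WT replicate 2 lay among the TET1 KO livers, and the log2 fold change was 0.25 (95% interval -0.11 to 0.61, edgeR adjusted p = 0.347), with 0.073 left without WT replicate 3 and 0.41 without WT replicate 2. Ces1b (ENSMUSG00000078964, chromosome 8 from 93056725 to 93080017, minus strand) was at 71.3, 69.1 and 47.8 CPM in WT livers and at 71.3, 76.7, 74.8 and 86.5 CPM in TET1 KO livers. TET1 KO replicate 1 and WT replicate 1 were level, and the log2 fold change was 0.30 (95% interval -0.04 to 0.65, edgeR adjusted p = 0.242), falling to 0.12 without WT replicate 3, the lowest liver.

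Ces3b (ENSMUSG00000062181, chromosome 8 from 105083733 to 105093929, plus strand) was at 136, 109 and 227 CPM in WT livers and at 375, 220, 194 and 272 CPM in TET1 KO livers. WT replicate 3 lay above 2 of the 4 TET1 KO livers, so the groups overlapped. The log2 fold change was 0.75 (standard error 0.28, 95% interval 0.14 to 1.36), with an edgeR adjusted p of 0.127 and a DESeq2 adjusted p of 0.0627, and without TET1 KO replicate 1, the highest liver, it was 0.54 (edgeR adjusted p = 0.236). Ces3a (ENSMUSG00000069922, chromosome 8 from 105048576 to 105061928, plus strand), its neighbour, was at 1962, 1739 and 2122 CPM in WT livers and at 1909, 2734, 2596 and 1847 CPM in TET1 KO livers. TET1 KO replicates 2 and 3 were above all WT livers and the others were within their range, for a log2 fold change of 0.23 (95% interval -0.27 to 0.72, edgeR adjusted p = 0.532). Without TET1 KO replicate 2 it was 0.11, and without TET1 KO replicate 3 it was 0.14. The ratio of Ces3b to Ces3a counts overlapped between groups, at 0.0628 to 0.107 in WT and 0.0746 to 0.196 in TET1 KO livers.

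Read sharing limits how far close copies can be told apart. Ces3a and Ces3b were identical at 95.3% of aligned coding bases, and 30.9% of 50-base windows of the Ces3a transcript occurred unchanged in another carboxylesterase, as did 26.1% of those of Ces3b. Ces1b and Ces1c were identical at 90.9%, with 10.8% and 13.4% of such windows shared. For the other members, Ces1g, Ces2a and Ces2e among them, the share was 0.533% to 3.36%. With windows of 100 bases it was 9.08% for Ces3a, 7.68% for Ces3b, 1.29% for Ces1b and 1.39% for Ces1c, and 0 for each of the other members. Levels of Ces3b, which is far less abundant than Ces3a, and of Ces1b, far less abundant than Ces1c, are therefore uncertain, because how reads matching several genes were counted is not given in the sources used here.

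**Figure D4:**
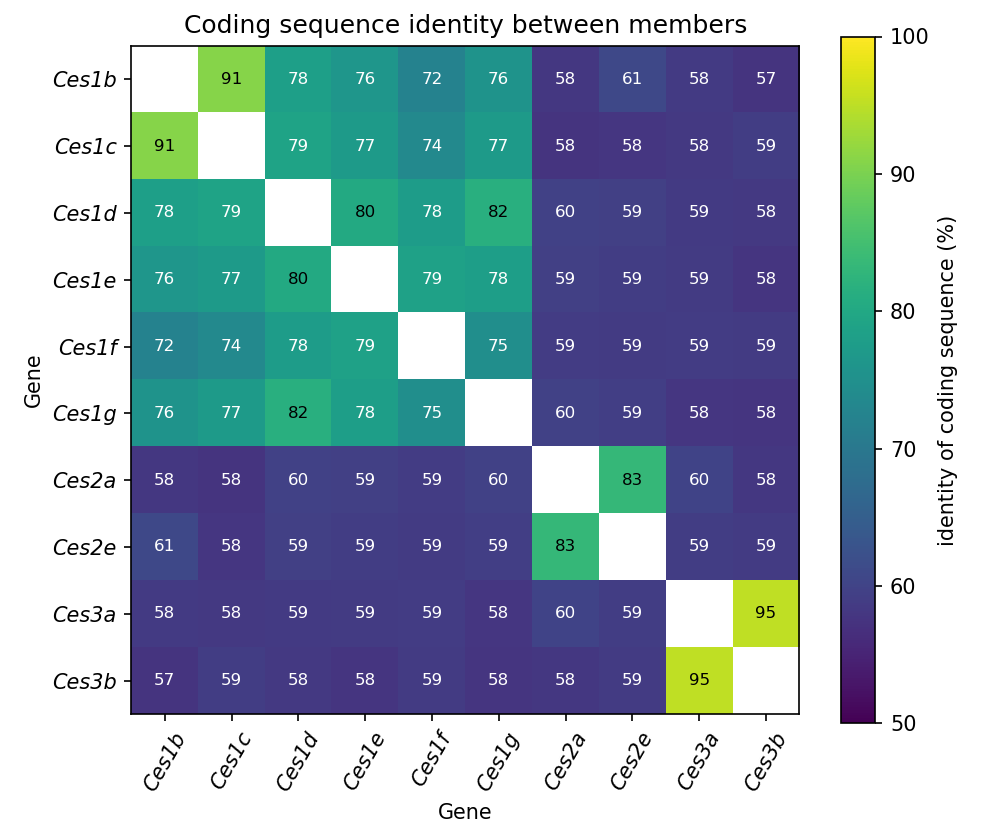
Identity of aligned coding sequence (%, colour scale and numbers in the cells) between each pair of the 10 members, with the diagonal left blank. The Ces1 pairs range from 72.1% to 90.9%, Ces2a and Ces2e share 83.3%, Ces3a and Ces3b share 95.3%, and pairs from different subfamilies share 57.4% to 60.8%.

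Among genes with a mean above 50 CPM, the median coefficient of variation between mice was 13.3% in WT and 13.5% in TET1 KO livers, and 8 of the 10 members were above it in each genotype. It was 38.8% and 23.8% for Ces1d, 39.2% and 30.2% for Ces3b, 32.0% and 16.4% for Ces2e, and 20.4% and 42.3% for Ces1g. WT replicate 3 was the lowest WT liver for 8 of the 10 members, all but Ces3a and Ces3b, for which it was the highest. Its summed level of 6 hepatocyte markers was also the lowest, 60195 CPM against 74073 to 81129 CPM in the other livers. Most of that sum was Alb (42646 CPM), and of the 6 markers only Alb and Ttr were lowest in WT replicate 3. Among WT livers Serpina1a was highest there (2365 CPM), and Apoa1, Tat and Cps1 were in the middle. TET1 KO replicate 1 was the lowest TET1 KO liver for Ces1b, Ces1c, Ces1f and Ces1g and the highest for Ces1e, Ces2a and Ces3b. The part of the marker levels in these values was not tested. In whole liver, fewer cells of a type and less RNA per cell cannot be told apart.

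**Figure D5:**
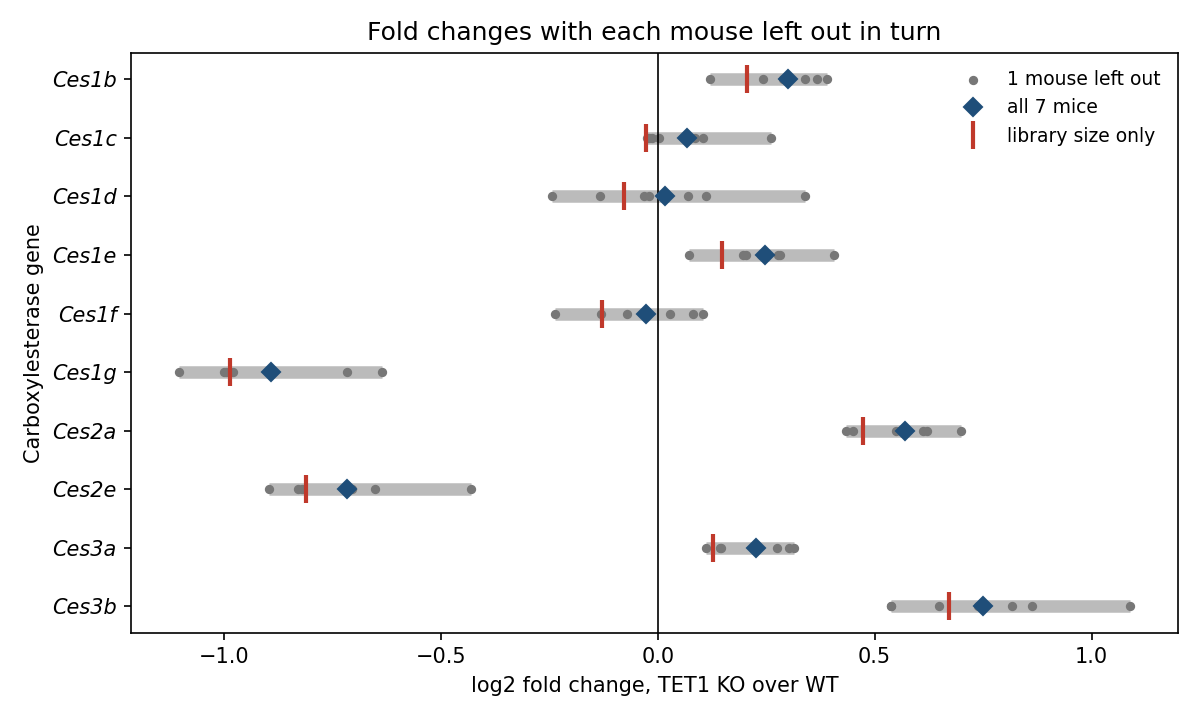
log2 fold change of TET1 KO over WT livers (horizontal axis) for each of the 10 members from all 7 mice (diamond), with each mouse left out in turn (grey points and bar from the lowest to the highest), and with scaling to library size only (red mark). The bars of Ces1g and Ces2e stay below 0 and those of Ces1b, Ces1e, Ces2a, Ces3a and Ces3b above it, while those of Ces1c, Ces1d and Ces1f cross it.

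Of the other 10 carboxylesterase genes, 6 passed the filter on low counts and none was called by edgeR (2.02% of all genes), with 5 at an unadjusted p under 0.05 (26.3% of all genes), while DESeq2 called Ces2c (9.46% of all genes). The groups did not overlap for 3 of the 6, Ces2c, Ces2g and Ces2h, as for 22.5% of all genes. Ces2c, a triacylglycerol hydrolase, was at 19.4 ± 4.14 CPM (SD, n = 3) in WT and 13.1 ± 1.65 CPM (SD, n = 4) in TET1 KO livers, without overlap (log2 fold change -0.57, edgeR adjusted p = 0.0905, DESeq2 adjusted p = 0.0493). Ces2g and Ces2h had means of 52.2 and 1.24 CPM in WT and 41.2 and 0.631 CPM in TET1 KO livers (log2 fold changes -0.34 and -0.997, edgeR adjusted p = 0.127 and 0.135). The pseudogene Ces2d-ps had a log2 fold change of -0.41 (edgeR adjusted p = 0.490).

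In Ces2b and Ces4a, TET1 KO replicate 1 was the highest liver. Ces2b had 194 counts in TET1 KO replicate 1 and at most 19 in any other liver, and its difference of 4.10 ± 1.45 on the log2 scale (SE, edgeR adjusted p = 0.116) became 1.78 without that liver. Ces4a had 66 counts in TET1 KO replicate 1 and at most 31 in the others, and its log2 fold change of 1.70 (edgeR adjusted p = 0.130) was 0.95 without that liver (0.272). Ces1a had no more than 7 counts in a liver (exact two-sided permutation test, p = 0.971), Ces1h had 2 counts in all, Ces2f had 1 and Ces5a had 0, so no difference could be detected at this depth.

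The genes around the arrays were examined next. Of 35 other genes tested within 500 kb of the arrays, none was called by edgeR, with 8 at an unadjusted p under 0.05 (26.3% of all genes) and none called by DESeq2 (9.46% of all genes), and their median log2 fold change was 0.00.

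Several other enzymes act on the same substrates. The list used here also held droplet coat genes (Plin2 to Plin5), triglyceride synthesis genes (Dgat1, Dgat2) and lipoprotein assembly genes (Mttp, Apob). Its counts are therefore not a measure of hydrolysis alone. Of 28 tested genes of triglyceride hydrolysis and the lipid droplet, none was called higher and 3 were called lower in TET1 KO livers, namely Lipa, Plin2 and Plin4, with a median log2 fold change of -0.25 and 21 of 28 below 0. Of all genes 0.874% were called higher and 1.15% lower. At an unadjusted p under 0.05 there were 11 of the 28 (26.3% of all genes), and DESeq2 called 6 (9.46% of all genes). Lipa, the lysosomal acid lipase, fell in TET1 KO livers to 87.5 ± 15.8 CPM (SD, n = 4), against 168 ± 37.4 CPM (SD, n = 3) in WT, a log2 fold change of -0.95 (edgeR adjusted p = 0.0280). Plin2 and Plin4, which coat lipid droplets, had log2 fold changes of -1.01 and -1.59 (edgeR adjusted p = 0.0382 and 0.00602). The neutral lipases were not called: the log2 fold change was -0.04 for Pnpla2 (adipose triglyceride lipase, edgeR adjusted p = 0.890), 0.53 for Lipe (hormone-sensitive lipase, 0.147), 0.09 for Mgll (monoacylglycerol lipase, 0.802) and 0.12 for Aadac (arylacetamide deacetylase, 0.637). With the replicate number as a block Lipe was called (log2 fold change 0.68, edgeR adjusted p = 0.0484), and without TET1 KO replicate 1 the value was -0.12 for Mgll and 0.44 for Lipe, neither of them called. The lowest value with 1 mouse left out was 0.33 for Lipe, without WT replicate 3, and 0.049 for Aadac, without TET1 KO replicate 2.

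Among 24 tested genes of other esterases and hydrolases, 1 was called higher and 2 lower (0.874% and 1.15% of all genes), with a median log2 fold change of -0.23. At an unadjusted p under 0.05 there were 13 of the 24 (26.3% of all genes), and DESeq2 called 8 (9.46% of all genes). Afmid, an arylformamidase of tryptophan breakdown, rose in TET1 KO livers to 65.8 ± 5.04 CPM (SD, n = 4), against 37.3 ± 6.18 CPM (SD, n = 3) in WT, a log2 fold change of 0.82 (edgeR adjusted p = 0.0214). Ephx1, the microsomal epoxide hydrolase, fell from 442 ± 116 CPM to 171 ± 32.2 CPM, a log2 fold change of -1.37 (edgeR adjusted p = 0.0117), and Pon3, a lactonase, had a log2 fold change of -0.93 (edgeR adjusted p = 0.0305). With WT replicate 2 left out, each of Lipa, Plin2, Afmid, Ephx1 and Pon3 lost its call, with edgeR adjusted p-values of 0.142, 0.191, 0.0873, 0.0719 and 0.149. Without TET1 KO replicate 1, Lipa (edgeR adjusted p = 0.0506) and Plin2 (0.0587) were no longer called. Without TET1 KO replicate 2 the same was true of Lipa (0.0713), Plin2 (0.0942), Afmid (0.0639) and Pon3 (0.0732), and without TET1 KO replicate 3 it was true of Lipa (0.0945), Plin2 (0.110), Afmid (0.0660) and Pon3 (0.0771). Plin2 was also not called without WT replicate 1 (0.0550), nor Afmid without WT replicate 3 (0.0626). Plin4 was called whichever of the 7 mice was omitted.

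Of 20 transcription factors and receptors linked to hepatic carboxylesterase genes, none was called by edgeR and DESeq2 called 1 (9.46% of all genes), with 4 at an unadjusted p under 0.05 (26.3% of all genes). Nr1i3, the constitutive androstane receptor, was at 519, 423 and 323 CPM in WT livers. It was at 736, 584, 616 and 553 CPM in TET1 KO livers, without overlap (log2 fold change 0.56, edgeR adjusted p = 0.105, DESeq2 adjusted p = 0.0461). Leaving out each mouse gave 0.38 to 0.73 for Nr1i3 (edgeR adjusted p = 0.0706 to 0.340). The log2 fold changes of Nr1i2, Nr1h4, Hnf4a and Ppara were 0.20, -0.04, 0.12 and -0.09, with edgeR adjusted p-values of 0.492 to 0.861, and that of Nr1i2 was 0.063 without TET1 KO replicate 1, its highest liver.

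Marker lists of other cell types were measured beside these results. The summed level of 5 cholangiocyte markers was 29.7 to 37.8 CPM in WT and 46.1 to 68.0 CPM in TET1 KO livers, and that of 5 endothelial markers was 126 to 128 CPM in WT and 106 to 124 CPM in TET1 KO livers, each without overlap. No marker of either list was called by edgeR (2.02% of all genes). At an unadjusted p under 0.05 there were 4 of the 5 cholangiocyte and 1 of the 5 endothelial markers (26.3% of all genes). DESeq2 called 3 of the 5 cholangiocyte and 1 of the 5 endothelial markers (9.46% of all genes). The pancreatic acinar sum did not overlap either, by Cela1 (log2 fold change 1.85, edgeR adjusted p = 0.00913, and 0.0723 without WT replicate 2), while Prss2 and Amy2b had at most 3 counts in any liver. The sum of 5 intestinal markers overlapped, at 119 to 199 CPM in WT and 53.8 to 125 CPM in TET1 KO livers, and came almost wholly from Fabp2, the intestinal fatty acid-binding protein. Fabp2, like Ces2e, was lower on average in TET1 KO livers, at 98.9 ± 32.7 CPM (SD, n = 4) against 170 ± 43.8 CPM (SD, n = 3) in WT (log2 fold change -0.78, edgeR adjusted p = 0.112, DESeq2 adjusted p = 0.0486). The log2 fold change of Fabp2 was -0.57 without TET1 KO replicate 1, its lowest liver (edgeR adjusted p = 0.143). Vil1 had at most 7 counts in any liver, Lct at most 1, and Cdx2 and Sis had 0. The part of the intestinal markers in the Ces2e values was not tested. The sums of the other lists, among them hepatocyte, periportal and Kupffer cell markers, overlapped between genotypes, that of the pericentral markers by TET1 KO replicate 1 alone. The part of the cholangiocyte and endothelial markers in the carboxylesterase values was not tested.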

How the data were processed

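Hepatic RNA of 3 WT and 4 whole body TET1 KO mice was sequenced. Per the labels, the authors trimmed reads with Trimmomatic 0.36, aligned them to GRCm38 with GSNAP and counted them per gene with featureCounts 1.5.3. The deposited values are raw counts per gene and mouse. The strand and multi-mapping settings and the annotation release are not given in the sources used here. Tables were joined by Ensembl identifier. Of 51431 entries 5 were repeated identifiers, and in the table of TET1 KO replicate 1 the symbols of 26 genes read as dates, so symbols were taken from the other tables.

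Counts were tested with edgeR 4.0.16 (R 4.3.3; filterByExpr, TMM, quasi-likelihood test, no covariate, Benjamini-Hochberg over 14754 genes), and intervals use its moderated degrees of freedom. DESeq2 1.42.0, RLE and library-size scaling, no filter, a minimum of 10 counts in every library, robust dispersions, a replicate block and leaving out each mouse were the alternatives, and for levels CPM of library size and coding length. Log2 CPM used a prior count of 2. The test was tried on simulated counts first. Exact permutation tests served single genes near the floor of 3 counts.

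The members, gene lists and markers were chosen with earlier results of these data known. Named genes were the members, all other carboxylesterase genes, the called genes of each list, 10 list genes named for their role (Lipa, which was called, and Nr1i3 among them), Tet1, and the 3 genes most correlated with the member of smallest p. Single marker genes were named beside the sum of their list after their values had been seen. Exon and coding lengths and transcripts came from GENCODE M1, matched by identifier, and coordinates and start-site sequences from RefSeq on GRCm38.p6. The labels call the samples of a group separate mice, and no pair of replicates agreed within sampling noise (chi-square per degree of freedom at least 27.4).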

Additional observations from a re-analysis of the deposited data

Results flagged for a closer look

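Each of 41 genes or sums of genes was searched for a TET1 KO liver set apart from the other 3, by its gap to the nearest liver divided by the range of the group. Chance alone gives about 1 such case in 20, or 2.05 of 41, and 3 were found. For Ces1c the gap was 0.867 of the range, with TET1 KO replicate 1 at 1216 CPM and the other TET1 KO livers at 2348 to 2522 CPM. For Ces2b it was 0.935, with the same liver at 12.1 CPM and the others at 0.141 to 0.921 CPM. For Afmid it was 0.854, with TET1 KO replicate 2 at 73.3 CPM and the others at 62.4 to 64.0 CPM. TET1 KO replicate 1 also had the lowest pericentral marker sum of the 7 livers, 6590 CPM, most of it Cyp2e1 (3953 CPM). The part of that marker sum in the Ces1c and Ces2b values was not tested.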

How the results depend on the processing

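Of the members, DESeq2 called 1 higher and 2 lower in TET1 KO livers, the replicate block called 1 lower, and leaving out each mouse gave 0 to 1 lower (1 without TET1 KO replicate 4). Over all genes, the 129 higher and 169 lower calls became 245 and 347 without a filter on low counts and 685 and 710 in DESeq2. Leaving out each mouse gave 16 to 427 higher and 22 to 464 lower, the fewest without WT replicate 2 and the most without TET1 KO replicate 4. Scaling to library size only gave 312 lower, so that 25.5% of calls were higher against 43.3% with TMM, and moved the median of all genes from 0.01 to -0.08. DESeq2 log2 fold changes were -0.91 for Ces1g, 0.56 for Ces2a and -0.73 for Ces2e, and leaving out each mouse gave -0.90 to -0.43 for Ces2e (-0.83 and called without TET1 KO replicate 4). Library size only reversed Ces1c to -0.028 and Ces1d to -0.077, and no filter reversed Ces1d to -0.015. Leaving out each mouse gave -0.024 to 0.26 for Ces1c, -0.24 to 0.34 for Ces1d and -0.24 to 0.10 for Ces1f, and with a change of sign also -0.16 to 0.068 for Pnpla2, -0.12 to 0.20 for Mgll, -0.016 to 0.18 for Hnf4a and -0.29 to 0.21 for Ppara. DESeq2 called 1 other carboxylesterase, 6 triglyceride genes, 8 other esterases and 1 transcription factor. Library size only called 5 other esterases, and leaving out each mouse gave 1 to 5 triglyceride genes and 0 to 5 other esterases. The cause was not tested. No other direction of a member reversed, and Tet1, Ces1a, Ces1h, Ces2f and Ces5a were limited by depth.

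Replicate numbers were not taken as pairs, since the deviations of same-numbered livers correlated at 0.209, -0.123 and -0.0964, and WT replicate 2 correlated best with TET1 KO replicate 4. A fit with the number as a block, in which TET1 KO replicate 4 stands alone, called 670 genes higher and 656 lower, 6 triglyceride genes, 5 other esterases and 1 neighbour of the arrays. Under the block Ces1g was called at a log2 fold change of -1.21 (edgeR adjusted p = 0.0275), Ces1c was at -0.083, Ces1d at -0.071 and Ppara at 0.023.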
